A study of Mus musculus with 4 samples.

Results

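Heme is made from glycine and succinyl-CoA by a chain of enzymes that starts and ends in the mitochondrion and passes through the cytosol, and it is broken down to biliverdin and then bilirubin. The liver is the main site of heme synthesis outside the bone marrow, because its cytochrome P450 enzymes need heme as a cofactor. In hepatocytes, flux is set largely by ALAS1, the enzyme of the first step, whose gene is repressed by heme and induced by drugs and by fasting. The 9 genes described here are 7 genes of synthesis (Alas1, Alad, Uros, Urod, Cpox, Ppox and Fech) and 2 genes of breakdown (Hmox1 and Blvrb). They were found by gene symbol among the 25655 genes of the deposited table, and all 9 passed the filter on low counts that left 12967 genes for testing.

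Expression was measured by RNA-seq of whole liver in 2 HFD-WT and 2 HFD-KO libraries. HFD stands for high-fat diet and KO for the loss of ADAR2, an enzyme that edits adenosine to inosine in RNA. HFD-WT mice were ADAR2+/+/GluR-B R/R and HFD-KO mice were ADAR2-/-/GluR-B R/R, so both groups carried the R/R allele of GluR-B, which lets mice without ADAR2 survive. All were on a B6129S background and were offspring of heterozygous parents. Feeding of the HFD began at 5 weeks of age and lasted 12 weeks, and the study's text states that its later experiments were done in male mice. ADAR2 is absent from the whole body in these mice and not from the liver alone, and no library of mice on standard chow was analysed here. The study gives more mice per group for its analysis of these RNA-seq data than there are libraries here, and which or how many mice each library holds, their fasting state and the hour at which the livers were taken are not given in the sources used here.

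Total counts were between 24480798 and 28691330 per library, so 3 counts corresponded to between 0.105 and 0.123 CPM, a limit that covers counting error only. Reads on Adarb1, which encodes ADAR2, were still counted in HFD-KO livers, at 6.23 and 9.55 CPM against 15.7 and 19.8 CPM in HFD-WT livers. Hepatocyte markers such as Alb were abundant in every library, and the summed level of the 7 hepatocyte markers in the table ranged from 79798 to 97064 CPM. Levels between libraries are given in CPM on the TMM-adjusted library size. Differences are log2 fold changes, HFD-KO over HFD-WT, from edgeR's quasi-likelihood test, adjusted by Benjamini-Hochberg over all 12967 genes. With 2 libraries against 2, the smallest exact permutation p for a single gene is 0.333, and where libraries are not separate mice the p values measure only the spread between these samples.

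Alas1 was the gene that differed most among the 9, with 27.9% less mRNA in HFD-KO livers, and the 6 later genes of synthesis showed no such difference. The fitted values of the breakdown genes Hmox1 and Blvrb were lower by a smaller amount, and the 95% interval of Blvrb reached 0.01. At an adjusted p under 0.05, 0 of the 9 genes passed by edgeR, where 0.0771% of all genes passed, while DESeq2's Wald test passed 1 of the 9, Alas1, and 0.887% of all genes. At an unadjusted p under 0.05, 2 of the 9 genes were lower, Alas1 and Hmox1, against 4.73% of all genes tested, and 0 of the 9 were higher, against 4.25% of all genes. In either direction the share of all genes was 8.98%, or 551 higher and 613 lower genes, and this split became 346 higher and 894 lower genes with the library size alone as scaling. Both HFD-KO libraries lay below both HFD-WT libraries for 3 of the 9 genes, Alas1, Hmox1 and Blvrb, against 20.3% of all genes, and above both for 0 of the 9, against 20.5% of all genes. The median log2 fold change was -0.04 over the 9 genes and 0.01 over all genes tested.

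**Figure D1:**
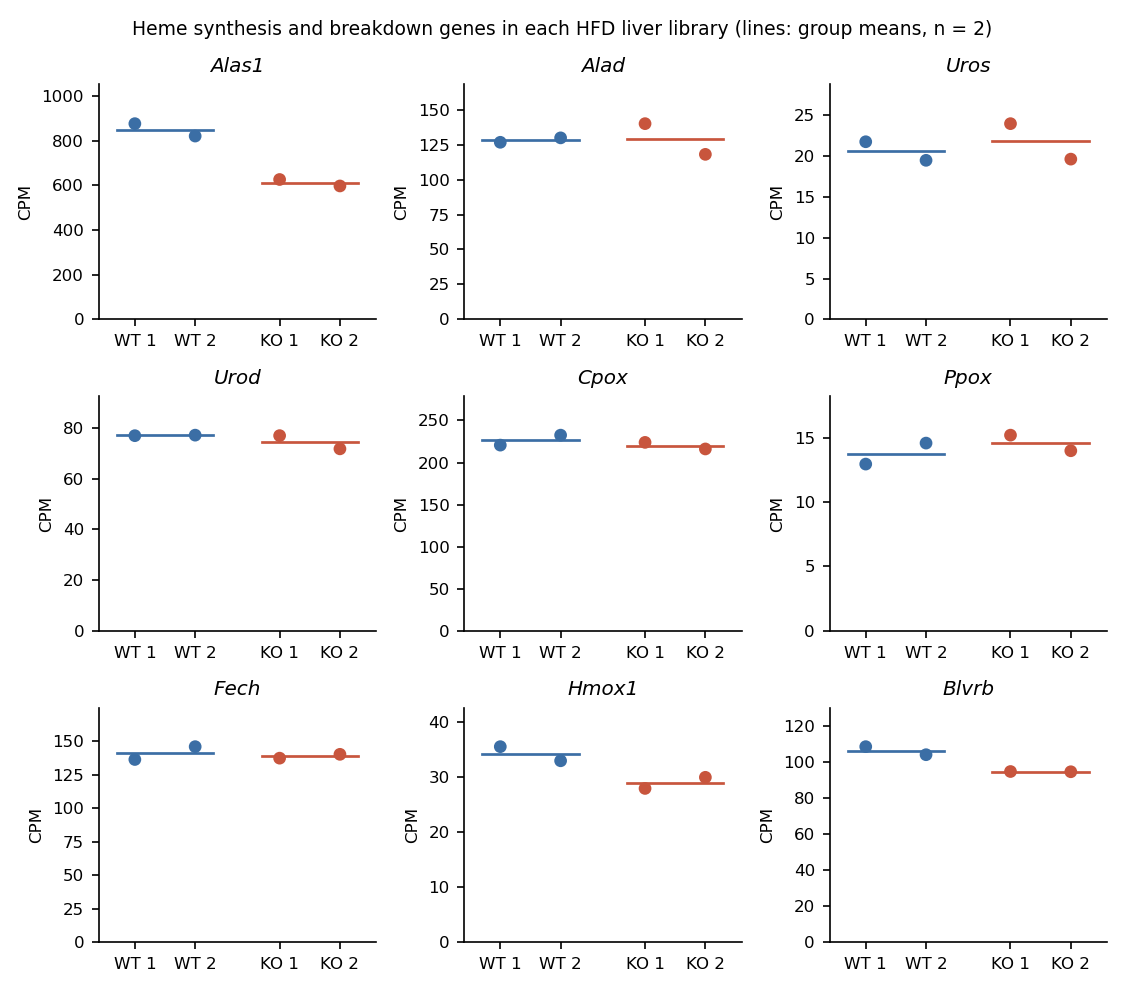
CPM of each of the 9 genes in each HFD-WT library (blue) and HFD-KO library (red), with lines at the group means; every axis starts at 0. Alas1, Hmox1 and Blvrb have their red points below their blue points, and the points of the other 6 genes overlap between genotypes.

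Alas1 encodes the housekeeping form of 5-aminolevulinate synthase, which joins glycine and succinyl-CoA in the mitochondrion. It is listed as ENSMUSG00000032786 on chromosome 9 from 106110654 to 106125853 in GRCm39. Its level was 876 and 821 CPM with HFD-WT and 626 and 597 CPM with HFD-KO, with 25374, 22574, 16486 and 14266 reads behind these values. The 2 HFD-KO values lay close together and well below the lower HFD-WT value, so the groups did not overlap. The group means were 848 ± 39 CPM (SD, n = 2) and 612 ± 20 CPM (SD, n = 2). The log2 fold change was -0.47 (standard error 0.093, 95% interval from -0.69 to -0.25), which is 27.9% less in HFD-KO livers. Its unadjusted p was 0.0013, which ranked 72 among all genes tested, and its adjusted p was 0.223 by edgeR. The adjusted p depended on the procedure: it was 0.000906 by DESeq2's Wald test and 0.0325 by edgeR without the filter on low counts, and over all alternatives it ranged from 0.000601 without HFD-KO replicate 1 to 0.9998 without HFD-WT replicate 2. The log2 fold change itself stayed between -0.52 and -0.43 over the 9 alternatives, with an unadjusted p under 0.05 in each of them.

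The promoter region of Alas1 is shown because Alas1 was the gene of synthesis that differed. Its RefSeq promoter windows, which run from 250 bases before to 50 bases after a transcription start, hold the palindrome bound by nuclear respiratory factor 1 (NRF1), a regulator of genes for mitochondrial proteins. This motif, spelled by the capitals in the Alas1 stretch, reads the same on both strands, and 0.971% of all 32851 RefSeq windows hold it. In the 30 bases below, from chr9:106247906-106247935 of GRCm38.p6 on the minus strand, capitals mark the motif, which begins 195 bases upstream of 1 annotated start and 29 bases downstream of another. 2 of the later genes, Alad and Urod, are shown beside it for the E-box CACGTG, the core of sites bound by circadian clock and other basic helix-loop-helix factors, which 7.15% of all windows hold.
Alas1: cgcacccaagGCGCATGCGCggcggtcact
Alad: gctccgaatgccCACGTGgaccccctcggg
Urod: cactggatcggtCACGTGgttctcaatatg
The Alad stretch is chr4:62520151-62520180 and the Urod stretch is chr4:116994445-116994474, both GRCm38.p6 on the minus strand, with capitals at the E-box 105 and 49 bases upstream of a start. Windows were found for 10 of the 12 genes of the pathway searched. Hmox1 and Fech had none, so no motif could be sought for them. Further E-box matches lay in another window of Alad, 28 bases upstream of its start, and in a window of Uros, and the antioxidant response element core TGACNNNGC, searched on both strands and held by 12.4% of windows, matched in Blvra. The cyclic AMP response element TGACGTCA (1.79% of windows) and the element bound by the REV-ERB receptors (0.219% of windows) matched in 0 of these 10 genes. These matches describe letters in the windows only, and the binding of no factor was measured.

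The 6 later genes of synthesis overlapped between genotypes, and their log2 fold changes lay between -0.05 and 0.09 with a median of -0.01. Alad, whose product joins aminolevulinate molecules into porphobilinogen in the cytosol, had 127 and 130 CPM with HFD-WT and 140 and 118 CPM with HFD-KO. The HFD-KO values lay on either side of both HFD-WT values, and the log2 fold change of 0.01 had a 95% interval from -0.22 to 0.24. Uros, which encodes the synthase that closes the tetrapyrrole ring, had 21.7 and 19.4 CPM with HFD-WT and 23.9 and 19.6 CPM with HFD-KO, a log2 fold change of 0.08 (95% interval from -0.20 to 0.36). Urod, which encodes the decarboxylase that turns uroporphyrinogen into coproporphyrinogen, had 76.9 and 77.1 CPM with HFD-WT and 76.9 and 71.7 CPM with HFD-KO, a log2 fold change of -0.05 (95% interval from -0.24 to 0.14). For Urod, 1 HFD-KO library matched the HFD-WT level and the other was slightly lower.

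The last steps of synthesis take place in the mitochondrion. Cpox, which encodes coproporphyrinogen oxidase, had 221 and 233 CPM with HFD-WT and 224 and 216 CPM with HFD-KO, a log2 fold change of -0.04 (95% interval from -0.23 to 0.15). Ppox, which encodes protoporphyrinogen oxidase, had 12.9 and 14.6 CPM with HFD-WT and 15.2 and 13.98 CPM with HFD-KO, a log2 fold change of 0.09 (95% interval from -0.17 to 0.34). Fech, on chromosome 18, encodes the ferrochelatase that inserts iron into protoporphyrin. It had 136 and 146 CPM with HFD-WT and 137 and 140 CPM with HFD-KO, a log2 fold change of -0.02 (95% interval from -0.21 to 0.16). The unadjusted p of these 6 genes ranged from 0.456 for Ppox to 0.931 for Alad by edgeR, and the lower bounds of their intervals, from -0.24 for Urod to -0.17 for Ppox, all lay above the fitted value of Alas1. The sign of so small a difference was not stable: leaving out 1 library turned it for Alad, Uros, Ppox and Fech, and the library size alone as scaling turned it for Alad. Uros overlaps Bccip by 740 bases and Ppox overlaps B4galt3 by 907 bases on the opposite strand, and the use of strand in counting is not given in the sources used here.

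**Figure D2:**
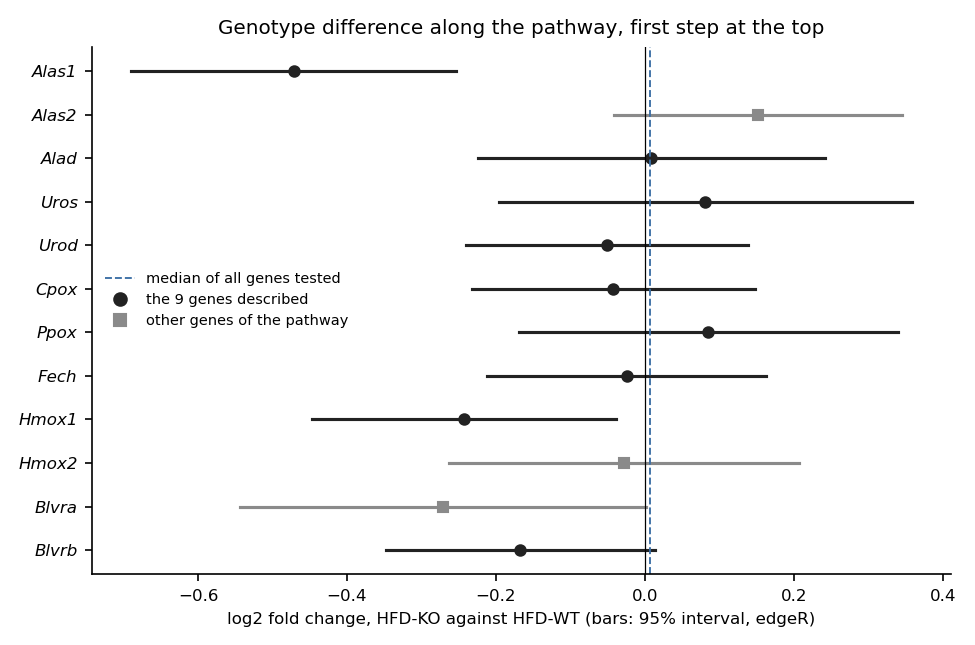
Log2 fold change between genotypes (HFD-KO over HFD-WT) with its 95% interval for the 9 genes (black circles) and 3 other genes of the pathway (grey squares), in the order of the steps; the dashed line is the median of all genes tested. The intervals of Alas1, from -0.69 to -0.25, and of Hmox1, from -0.45 to -0.04, lie below 0, and those of the other 10 genes include it.

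The scaling between libraries cannot enter a ratio of reads within a library. Alas1 had 1.47 and 1.33 reads for each read on the 6 later genes in HFD-WT livers and 1.01 and 1.03 in HFD-KO livers. The ratio was thus lower in both HFD-KO libraries, and its mean on the log2 scale differed by -0.45. Summed over all 7 genes of synthesis, the level was 1471 and 1440 CPM with HFD-WT and 1243 and 1177 CPM with HFD-KO, and Alas1 held more than any other of the 7 in each library.

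Per length, in the authors' RPKM, Alas1 was also the highest of the 9 genes, at 125 to 190 RPKM over the 4 libraries. Alad followed at 83.7 to 101 RPKM, and neither range overlapped that of a neighbour. Cpox (62.9 to 71.2 RPKM) and Blvrb (60.4 to 71.8 RPKM) could not be ordered, since their ranges overlapped, and Urod came next at 43.4 to 49.1 RPKM. Hmox1 (16.3 to 21.1 RPKM) and Fech (16.6 to 18.2 RPKM) overlapped, as did the lowest of the 9, Ppox (6.45 to 7.42 RPKM) and Uros (6.16 to 7.63 RPKM).

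**Figure D3:**
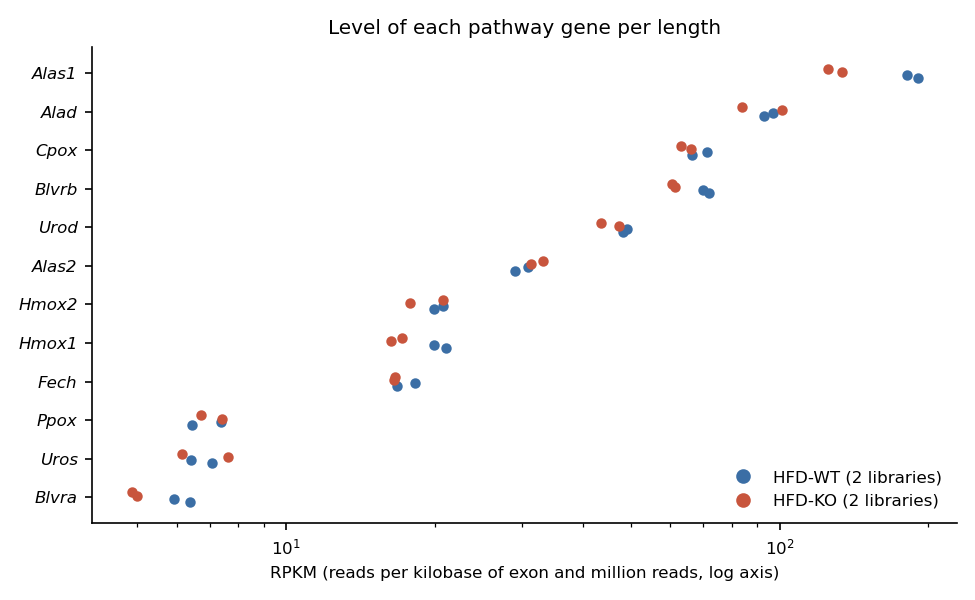
Level of the 9 genes and 3 other genes of the pathway in RPKM on a log axis, with a point for each HFD-WT library (blue) and HFD-KO library (red). Alas1 is the highest at 125 to 190 RPKM, with the HFD-KO points to the left of the HFD-WT points, and Blvra, at 4.86 to 6.39 RPKM, reaches lowest and overlaps Uros.

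Hmox1 encodes heme oxygenase 1, the inducible enzyme that opens the heme ring and releases biliverdin, carbon monoxide and iron. It is listed as ENSMUSG00000005413 on chromosome 8 from 75820249 to 75827217 in GRCm39. Its level was 35.5 and 32.9 CPM with HFD-WT and 27.9 and 29.9 CPM with HFD-KO. The groups did not overlap, but the gap between them was only slightly wider than the spread within a group. The log2 fold change was -0.24 (standard error 0.087, 95% interval from -0.45 to -0.04), with an unadjusted p of 0.026 and an adjusted p of 0.477 by edgeR. The unadjusted p was 0.0805 by DESeq2's Wald test, 0.158 without HFD-WT replicate 1 and 0.0959 without HFD-KO replicate 1. Hmox2, which encodes the constitutive heme oxygenase, had 47.4 and 48.6 CPM with HFD-WT and 43.2 and 51.0 CPM with HFD-KO, which overlapped (log2 fold change -0.03, 95% interval from -0.26 to 0.21). Hmox2 shares 16395 bases with Cdip1 on the opposite strand, a gene with a log2 fold change of -0.24.

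In liver, Hmox1 is expressed strongly by Kupffer cells, the resident macrophages that clear aged red cells. Of 13 Kupffer cell and macrophage markers, 12 had a log2 fold change below 0, as had 6282 of 12967 genes tested. By edgeR, 9 passed an unadjusted p of 0.05 in that direction, against 4.73% of all genes. The median log2 fold change of the 13 was -0.48. Marco went the other way, at 0.46, with 5.52 and 4.07 CPM with HFD-WT and 4.56 and 8.71 CPM with HFD-KO. The summed level of the 13 markers was 492 and 616 CPM with HFD-WT and 402 and 382 CPM with HFD-KO. Every marker of the list was detected in every library. In whole tissue, fewer cells of a type and less RNA per cell cannot be told apart. For each 100 reads on these markers, Hmox1 had 7.21 and 5.35 reads in HFD-WT livers and 6.95 and 7.83 reads in HFD-KO livers, and the groups overlapped. The marker sum was itself lower in HFD-KO livers, so a gene without a difference would have a higher ratio there. This ratio therefore cannot place the difference of Hmox1 in any cell type. All 5 stellate cell markers also had a log2 fold change below 0, with sums of 165 and 180 CPM with HFD-WT and 133 and 102 CPM with HFD-KO, while the sums of 5 endothelial markers overlapped between genotypes, from 186 to 207 CPM. The part of these cells in the difference of Hmox1 was not tested.

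**Figure D4:**
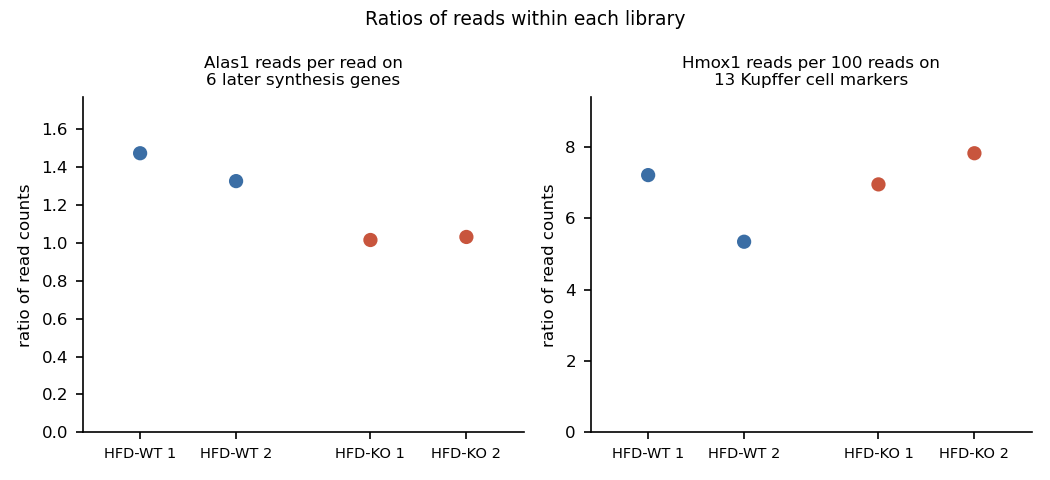
Ratios of reads within each library, on axes that start at 0. On the left, Alas1 has 1.33 to 1.47 reads for each read on the 6 later genes of synthesis in HFD-WT livers (blue) and 1.01 to 1.03 in HFD-KO livers (red), and on the right, Hmox1 has 5.35 to 7.21 reads for each 100 reads on 13 Kupffer cell markers in HFD-WT livers and 6.95 to 7.83 in HFD-KO livers.

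Blvrb encodes a flavin and biliverdin reductase, abundant in liver and red cells. It is listed as ENSMUSG00000040466 on chromosome 7 from 27147403 to 27165569 in GRCm39. Its level was 109 and 104 CPM with HFD-WT and 94.9 and 94.8 CPM with HFD-KO. The HFD-KO values were nearly equal and lay below both HFD-WT values. The log2 fold change was -0.17 (standard error 0.077, 95% interval from -0.35 to 0.01), with an unadjusted p of 0.066 and an adjusted p of 0.588 by edgeR. With the library size alone as scaling, which moved the median of all genes to -0.04, the log2 fold change was -0.21 and the unadjusted p was 0.0268. Blvra, which encodes the main biliverdin reductase of the adult, had 11.4 and 10.4 CPM with HFD-WT and 9.12 and 9.002 CPM with HFD-KO, again without overlap. Its log2 fold change was -0.27 (95% interval from -0.54 to 0.00, unadjusted p = 0.051, adjusted p = 0.556 by edgeR). Within a library, Blvrb had 9.51 and 9.99 reads for each Blvra read in HFD-WT livers and 10.4 and 10.5 in HFD-KO livers.

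Alas2, the erythroid form of the enzyme that Alas1 encodes, had 63.6 and 66.5 CPM with HFD-WT and 69.9 and 74.7 CPM with HFD-KO. The HFD-KO values lay above the HFD-WT values, opposite to Alas1, with a log2 fold change of 0.15 (95% interval from -0.04 to 0.35, unadjusted p = 0.105, adjusted p = 0.647 by edgeR). Alas1 had 13.8 and 12.3 reads for each Alas2 read in HFD-WT livers and 8.96 and 7.99 in HFD-KO livers. Alas2 lies within the span that the table lists for Apex2 on the opposite strand.

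Alas2 and several enzymes of synthesis are also expressed in red cell precursors, so erythroid markers were examined. All 7 tested genes of the list of 9, Alas2 included, had a log2 fold change above 0, as had 6685 of 12967 genes. By edgeR, 3 hemoglobin genes were higher at an unadjusted p under 0.05, against 4.25% of all genes. The summed level of 4 hemoglobin genes was 694 and 534 CPM with HFD-WT and 741 and 1072 CPM with HFD-KO. Epb42, which encodes a red cell membrane protein, was near 0, with at most 4 reads in a library, and Slc4a1, the red cell anion exchanger gene, had at most 26 reads. Klf1, another erythroid marker, had 89 and 42 reads with HFD-WT and 80 and 70 reads with HFD-KO. Among the libraries, hemoglobin was lowest in HFD-WT replicate 2 and highest in HFD-KO replicate 2, while Alas2 was lowest in HFD-WT replicate 1 and highest in HFD-KO replicate 2. Hemoglobin was higher in both HFD-KO livers and Alas1 was lower in both. The part of blood RNA in the levels of the other genes was not tested.

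Alas1 and many P450 genes are also known to be expressed most strongly around the central vein. Of 9 pericentral hepatocyte markers, 7 had a log2 fold change above 0, as had 6685 of 12967 genes. By edgeR, 1 of them, Tbx3, was higher at an unadjusted p under 0.05, against 4.25% of all genes. The summed level of the 9 markers was 14141 and 12080 CPM with HFD-WT and 14315 and 12868 CPM with HFD-KO, which overlapped. Such a sum is weighted towards the most abundant markers. The P450 genes Cyp2e1 and Cyp1a2 are in this list and also among the heme-using enzymes described below.

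Around the pathway, 74 further genes of heme biology were examined in 5 lists, and all 74 were tested. At an adjusted p under 0.05, 0 of the 74 passed by edgeR, 3 passed by edgeR without the filter on low counts (Nr1d1, Cyp2b10 and Cyp3a11) and 4 passed by DESeq2's Wald test (the same 3 and Cyp4a14). Over all genes the shares were 0.0771%, 0.936% and 0.887%. At an unadjusted p under 0.05, 5 were higher and 5 were lower, and the median log2 fold change was 0.00, against 4.25% and 4.73% of all genes. Left out in turn, HFD-WT replicate 2 gave 5 genes in all, and HFD-KO replicates 1 and 2 gave 22 and 18. The share of all genes moved in the same way, from 8.98% to 3.48%, 16.4% and 11.4%. Among the 3 enzymes closest to the 9 genes, described above as Alas2, Hmox2 and Blvra, 0 passed that threshold.

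The list of transport and mitochondrial support held 19 genes, of which 0 were higher and 2 lower at the same threshold, with a median log2 fold change of 0.01. Abcg2, which encodes an efflux pump for porphyrins and drugs, had 73.2 and 74.1 CPM with HFD-WT and 65.1 and 57.5 CPM with HFD-KO (log2 fold change -0.26, unadjusted p = 0.020, adjusted p = 0.451 by edgeR). Without HFD-KO replicate 2, the lower of the HFD-KO libraries, the difference was -0.18 with an unadjusted p of 0.0812, and the unadjusted p was 0.0798 and 0.103 without HFD-WT replicates 1 and 2. Slc48a1, which encodes HRG1, a transporter that carries heme from the lysosome into the cytosol and is prominent in macrophages, had 66.4 and 68.6 CPM with HFD-WT and 57.3 and 58.2 CPM with HFD-KO. Its log2 fold change was -0.23 (unadjusted p = 0.022, adjusted p = 0.462 by edgeR), and its unadjusted p was 0.0802 and 0.148 without HFD-WT replicates 1 and 2 and 0.0506 by DESeq2's Wald test. It moved in the same direction as the Kupffer cell markers described beside Hmox1, and the part of these cells was not tested. In the list of heme scavenging and bilirubin disposal, 0 of 8 genes passed, and the log2 fold changes ranged from -0.15 to 0.16.

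Among 17 regulators, 2 were higher and 1 was lower at an unadjusted p under 0.05, with a median log2 fold change of -0.03. Nr1d1, which encodes REV-ERB alpha, a clock repressor that binds heme as its ligand, had 82.8 and 73.4 CPM with HFD-WT and 117 and 100 CPM with HFD-KO. The groups did not overlap, and the log2 fold change was 0.47 (standard error 0.11, unadjusted p = 0.0025, adjusted p = 0.257 by edgeR and 0.0389 by DESeq2's Wald test). Its paralog Nr1d2, which also binds heme, had 57.3 and 53.6 CPM with HFD-WT and 62.6 and 64.5 CPM with HFD-KO (log2 fold change 0.20, unadjusted p = 0.046, adjusted p = 0.543 by edgeR), and its unadjusted p was under 0.05 in only 2 of 9 alternatives. Nr1d1 mRNA is known to swing widely over the day, and the hour of collection cannot be told apart from genotype here.

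Nr1i2, which encodes the pregnane X receptor (PXR), a sensor of foreign compounds that induces Alas1 and P450 genes, was the regulator that was lower. It had 108 and 114 CPM with HFD-WT and 81.0 and 90.1 CPM with HFD-KO, a log2 fold change of -0.38 (standard error 0.089, unadjusted p = 0.0034, adjusted p = 0.271 by edgeR), and its unadjusted p was under 0.05 in each of the 9 alternatives. 3 further regulators, named after their values were seen because they are known to act on Alas1, did not pass. Nr1i3, which encodes the related receptor CAR, had a log2 fold change of 0.22 (95% interval from -0.05 to 0.48). Ppargc1a, which encodes the coactivator PGC-1 alpha, had a log2 fold change of -0.03 (95% interval from -0.34 to 0.28), and Nrf1, which encodes the factor that binds the palindrome printed above, had one of -0.06 (95% interval from -0.36 to 0.23).

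At the same threshold, 3 of 27 enzymes that use or mature heme were higher and 2 lower, and all of these were among the 15 P450 genes of the list. Cyp3a11, a drug-metabolising P450 gene induced by PXR, had 1546 and 1263 CPM with HFD-WT and 691 and 831 CPM with HFD-KO, so both HFD-KO values were far below both HFD-WT values. Its log2 fold change was -0.88 (standard error 0.14, unadjusted p = 0.00032, adjusted p = 0.115 by edgeR, 1.2e-07 by DESeq2's Wald test). Cyp2b10, a P450 gene induced by CAR, had 5.35 and 7.96 CPM with HFD-WT and 1.22 and 3.22 CPM with HFD-KO. Its log2 fold change was -1.60 (standard error 0.40, unadjusted p = 0.0051, adjusted p = 0.329 by edgeR and 0.0179 by DESeq2's Wald test), and became -1.04 and -2.45 without HFD-KO replicates 1 and 2, which differed widely at this low level.

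The 3 P450 genes that were higher were Cyp7b1, Cyp4a14 and Cyp2c29. With 1 library left out, the log2 fold change ranged from 0.30 to 0.9985 for Cyp7b1. It ranged from 0.32 to 0.65 for Cyp4a14 and from 0.21 to 0.57 for Cyp2c29. For Cyp3a11, which was lower, the same range was from -1.02 to -0.74. Cyp7b1, an oxysterol hydroxylase gene, had 43.5 and 43.4 CPM with HFD-WT and 86.8 and 53.4 CPM with HFD-KO. Its log2 fold change of 0.69 (standard error 0.20, unadjusted p = 0.0097, adjusted p = 0.378 by edgeR) rested largely on HFD-KO replicate 1 and was 0.30 without it. Cyp4a14, a fatty acid omega-hydroxylase gene, had 1854 and 1564 CPM with HFD-WT and 2134 and 2685 CPM with HFD-KO (log2 fold change 0.50, unadjusted p = 0.012, adjusted p = 0.400 by edgeR and 0.0473 by DESeq2's Wald test), and 0.32 without HFD-KO replicate 2; without HFD-WT replicate 2 its unadjusted p was 0.109. Cyp2c29, an epoxygenase gene that was named after its values were seen as the fifth of the list, had a log2 fold change of 0.38 (unadjusted p = 0.028, adjusted p = 0.487 by edgeR), and 0.21 with an unadjusted p of 0.227 without HFD-WT replicate 2. Cyp3a11, Cyp2b10, Cyp4a14 and Cyp2c29 have close paralogs, and how shared reads were assigned is not given in the sources used here. Of the 12 other heme-using and heme-maturing genes, such as those for catalase, tryptophan dioxygenase and cytochrome c, 0 passed, and their log2 fold changes lay between -0.19 and 0.12.

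**Figure D5:**
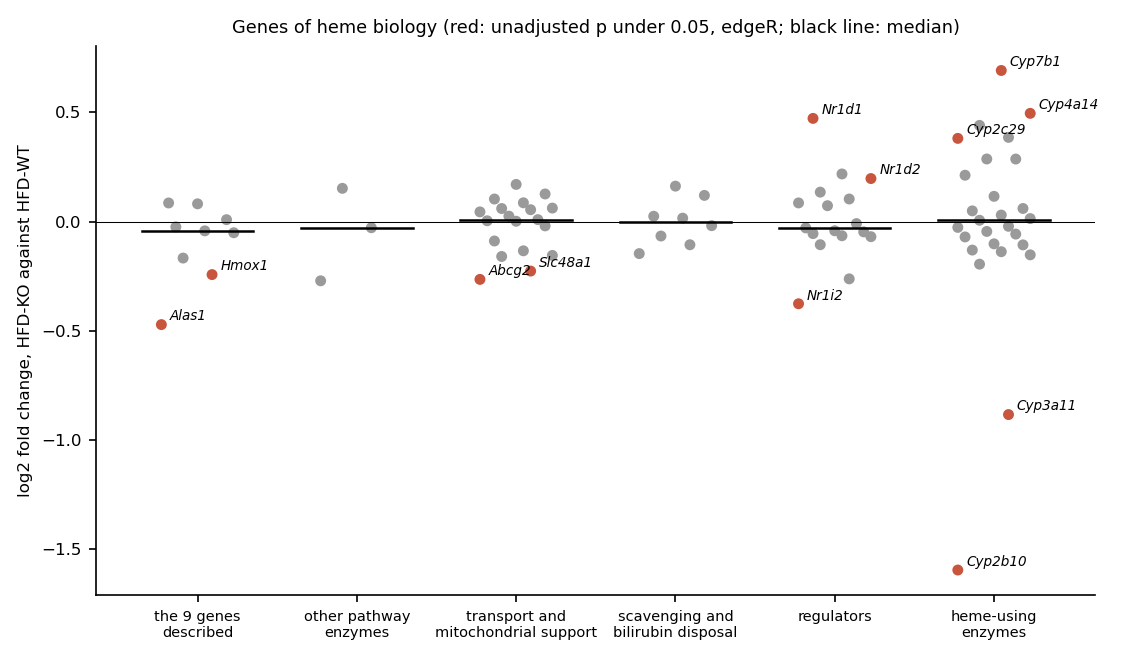
Log2 fold change between genotypes (HFD-KO over HFD-WT) for the 9 genes and for 74 further genes of heme biology in 5 lists, with a point for each gene, red at an unadjusted p under 0.05, and a black line at each median. The medians lie between -0.04 and 0.01, and the red points reach from Cyp2b10 at -1.60 to Cyp7b1 at 0.69.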

How the data were processed

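Liver RNA was extracted with TRIzol, libraries were made with a directional kit of MGI Tech, and paired ends were sequenced on a DNBSEQ-G400RS. The authors trimmed and aligned the reads to mm10 with MGI Tech's tool and quantified GENCODE genes with Partek Genomics Suite, while the table's gene positions are those of GRCm39. The deposited counts are whole reads per gene without normalization, and they were tested here. The deposited RPKM values, which divide counts by exon length and library total, were used only to compare levels between genes. The deposited TPM values and the deposited CPM values, a score on an adjusted library size, were not used.

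The test was run with edgeR 4.0.16 under R 4.3.3 (filterByExpr, TMM, quasi-likelihood test, two-sided, Benjamini-Hochberg adjustment over 12967 genes), with genotype as the only term. The procedure was tested on simulated data with 200 changed genes. At a fold of 1.4, 141 of them had an unadjusted p under 0.05 by edgeR and 19 an adjusted p under 0.05. At a fold of 2, these numbers were 178 and 139. Unchanged genes that passed the adjusted threshold numbered 6 and 18 at these folds. At both folds this was a larger share of the passing genes than the 0.05 aimed at. Alternatives were DESeq2 1.42.0 (Wald test, and its size factors in edgeR), the library size alone, no filter, the replicate number as a block, and leaving out each library. The genes and lists were chosen with earlier results of these data known. Genes named were all 9 genes, 3 other enzymes of the pathway and, in each other list, up to 4 genes with the smallest p under 0.05. Some genes of the lists are not reported here and were left out of the lists' counts. Promoter windows were RefSeq's on GRCm38.p6. Plots were drawn with matplotlib 3.10.9.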

Additional observations from a re-analysis of the deposited data

How the results depend on the processing

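Alas1, Hmox1 and Blvrb kept a log2 fold change below 0 under all 9 alternatives. Urod and Cpox, whose groups overlapped, did so too. Both HFD-KO libraries lay below both HFD-WT libraries for Alas1, Hmox1 and Blvrb. Leaving out a library could therefore hardly turn the sign of these genes. Alas1 had -0.48 without the filter on low counts and -0.47 by DESeq2's Wald test, both at an adjusted p under 0.05, and from -0.52 to -0.43 when each library was left out. At an adjusted p under 0.05, 6 genes in all passed with the library size alone, 162 without the filter, 20 with the replicate number as a block, 115 by DESeq2's Wald test and from 0 to 705 when each library was left out, against 10 in the comparison as reported; the cause was not tested. Of the 9 genes, 1 had an unadjusted p under 0.05 by DESeq2's Wald test, and from 1 to 2 when each library was left out. Of the 74 further genes, from 5 to 22 did so when each library was left out, and the share of all genes ran from 3.48% to 16.4% over the same settings. With the library size alone, the log2 fold change turned to -0.0365 for Alad. When each library was left out it ranged from -0.119 to 0.126 for Alad, from -0.0707 to 0.216 for Uros, from -0.0044 to 0.174 for Ppox, from -0.0785 to 0.0272 for Fech and from -0.153 to 0.0882 for Hmox2.

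The replicate numbers occur in both groups with no stated pairing, so none was assumed. The deviations of same-numbered libraries had a correlation of -0.087 across genes. With 2 libraries per group this is a single value, and it cannot exclude a pairing. With the replicate number as a block, Alas1 had a log2 fold change of -0.47 (adjusted p = 0.269 by edgeR), Hmox1 -0.24 and Blvrb -0.17, and no call on the 9 genes changed. Each of the 9 genes had at least 334 reads in every library, and what limited the calls was not tested.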
